A study of Mus musculus with 4 samples.

Results

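The comparison described here is that of mouse 3D engineered muscle 5 h after an acute bout of EPS with unstimulated engineered muscle at 5 h. A gene entered it when its probe was well above background, by the scanner software's flag, on both arrays, which held for 18534 of the 31884 gene names on the array. Engineered muscle is skeletal muscle tissue grown in culture, and EPS, spelled out in the labels as electrical plus stimulation and read here as electrical pulse stimulation, makes such tissue contract. The stimulated group received 30 min of acute EPS and was profiled at 5 h, and the control group received no acute EPS and was profiled at 5 h. Another pair of groups, with and without the same 30 min of EPS, was profiled at 0 min. Each of the 4 groups was 1 single-colour Agilent array of total RNA, so no spread between tissues is known and no test was run. The cells that formed the tissue, their strain and whether several tissues were pooled are not given in the sources used here.

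Contracting muscle is a secretory tissue. Calcium entry, stretch and metabolic stress act through kinases and transcription factors of the AP-1, CREB and NF-kB families, first on early response genes and hours later on genes for cytokines, growth factors and chaperones. A rise in secreted and membrane proteins loads the endoplasmic reticulum, whose folding enzymes are controlled by the transcription factors ATF6 and XBP1.

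The level of a gene is the log2 of its background-subtracted signal minus the 75th percentile of its array, which was 1280 without EPS and 1492 with EPS at 5 h. All 20 markers of skeletal muscle looked for, from fast and embryonic myosins to Myog, were well above background on both arrays. Their differences lay between -0.37 and 0.40, with a median of -0.09 that became 0.03 under quantile normalization. Leukocytes are given as the source of the RNA in the labelling protocol, against the titles. Of 15 markers of T, B and NK cells, 10 were dim on both arrays, among them Ptprc, the pan-leukocyte antigen CD45, with signals of 3.6 and 4.0. Cd2 was above background with EPS alone and Ncr1 without EPS alone. Cd3e, Cd4 and Nkg7 were measured on both arrays at differences of -0.32, -0.32 and -0.17. Of 14 macrophage markers 4 were dim on both arrays, among them Lyz2 and Tyrobp, and 6 were measured on both. Of 14 neutrophil markers 6 were dim on both arrays and 7 were measured on both.

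Few genes differed by 2-fold or more between stimulated and unstimulated tissue at 5 h. Of 18534 genes, 128 (0.691%) reached a difference of 2-fold or more upward in the stimulated tissue, and 97 (0.523%) did so downward. A 4-fold difference was reached by 20 genes upward and 8 downward. The median difference over all genes was -0.03 on the log2 scale with a standard deviation of 0.30, and 43.4% of genes lay above 0 against 56.6% below. In bulk tissue a lower share of cells of a kind and less RNA per cell cannot be told apart, and this holds for each difference below. With the genes split into 4 equal groups by mean level, the brightest group held 13 genes past 2-fold upward and 2 downward. The dimmest group held 72 and 67.

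**Figure D1:**
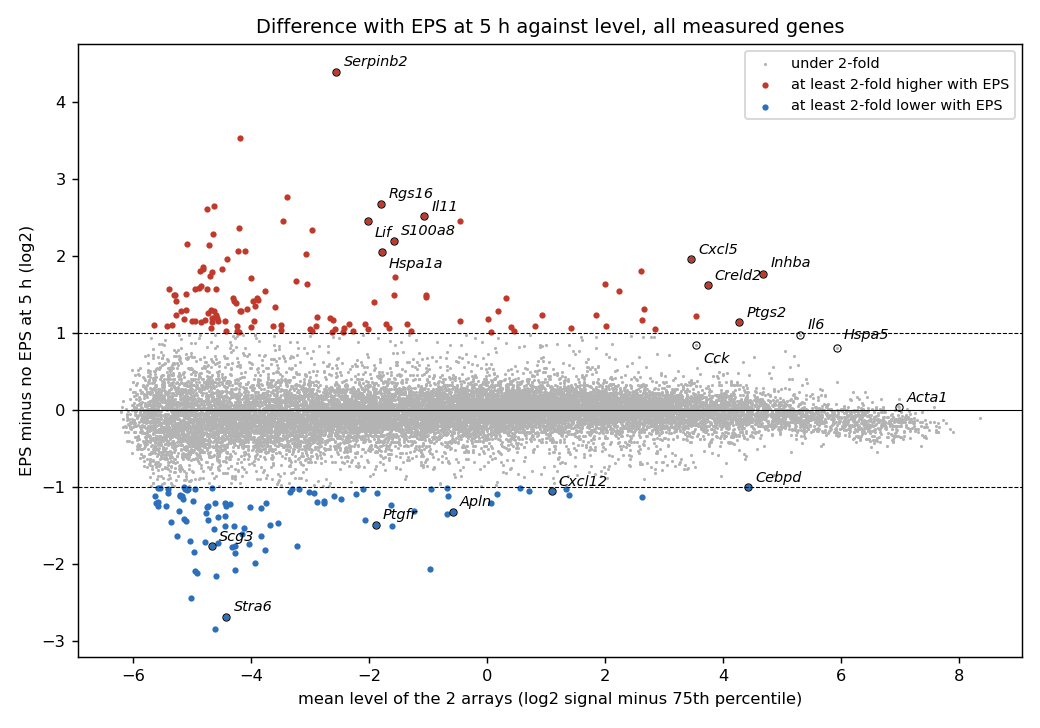
Difference between the EPS and no EPS arrays at 5 h (log2, vertical axis) against the mean level of the 2 arrays (horizontal axis) for 18534 genes, 1 point each. Dashed lines mark 2-fold, and most of the 128 red and 97 blue genes lie at low levels, with Inhba, Cxcl5, Creld2 and Ptgs2 among the exceptions.

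Spot error was estimated from 273 probes printed 10 times and measured on both arrays. The standard deviation of the difference between their spots was 0.05 at the median probe and 0.25 at the 95th percentile. In the dimmest group of genes it was 0.19 at the median and in the brightest 0.04. This error covers the spots of 1 labelled RNA and not the spread between tissues. Most genes rest on 1 probe. Of the 18 genes past 2-fold with several measured probes, 14 had all their probes on the same side of 0 and 5 had all of them past 2-fold.

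**Figure D2:**
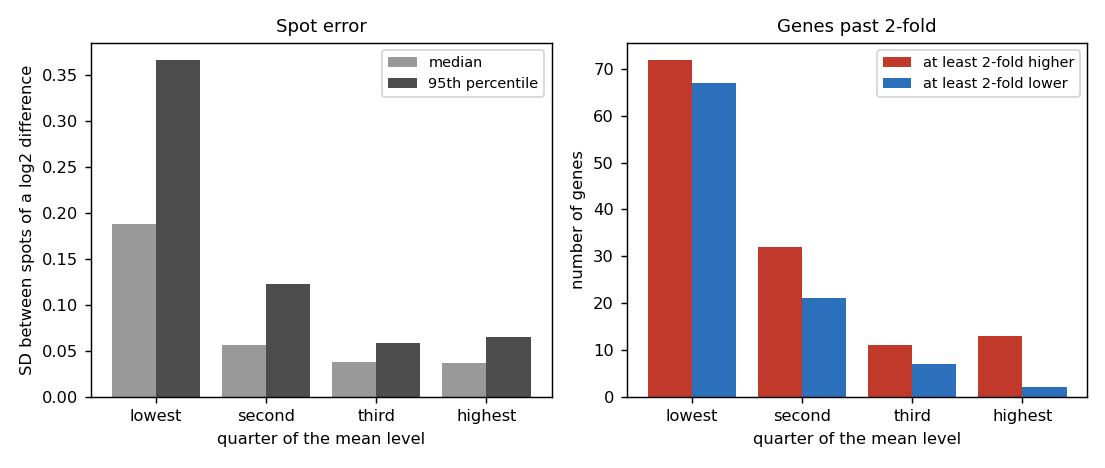
Left, standard deviation between spots of the log2 difference at 5 h for probes printed 10 times, as median and 95th percentile (vertical axis) in 4 equal groups of genes by mean level (horizontal axis). Right, number of genes at least 2-fold higher or lower in the same groups: both the error and the counts were highest in the dimmest group, with 72 and 67 genes.

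Serpinb2 had the largest difference of all measured genes. It encodes plasminogen activator inhibitor 2, a serpin induced in many cells by cytokines and growth factors. Its signal was 47.6 without EPS and 1160 with EPS at 5 h, a 20.9-fold difference, and 8.3 and 8.8 on the unstimulated and stimulated 0 min arrays, where it was not well above background. The probe lies at chr1:109422046-109422105 on build mm9. Of 22 measured genes of plasminogen activation and coagulation, 14 lay above 0, 3 were 2-fold higher and none was 2-fold lower, with a median of 0.20, against 43.4% above 0 and 0.691% 2-fold higher among all genes. Plaur, the urokinase receptor, was 2.08-fold higher, with signals of 6355 and 15385. Procr, the endothelial protein C receptor, had a difference of 0.97, Thbd (thrombomodulin) 0.73 and Plau (urokinase) 0.49. F3, the tissue factor that starts coagulation, had -0.49. Serpina3g was 2.26-fold higher but dim, at 24.2 and 63.8, and its difference was 0.27 after normexp background correction, which adds an offset of 50 to every signal and thereby compresses dim genes. The same correction brought Serpinb2 from 4.39 to 3.23 on the log2 scale.

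Il11 and Lif were the ligands of the interleukin-6 family with the largest differences. Il11 (interleukin-11) had signals of 133.9 without and 140.9 with EPS at 0 min, 255.8 without EPS at 5 h and 1712 with EPS at 5 h. Lif, the leukemia inhibitory factor, which muscle releases on contraction, had 68.1, 59.3, 134.0 and 861.5 in the same order. In both genes the EPS array at 5 h stood far above the other 3 arrays, by 5.74-fold over its control for Il11 and 5.52-fold for Lif. Il6, a cytokine long known from contracting muscle, had 622.9, 1186, 36218 and 83370. It was high on both 5 h arrays, and its difference of 0.98 lay just under 2-fold. Clcf1, another ligand, had 0.82. On the receiving side, Socs3, the feedback inhibitor of this receptor pathway, had -0.77, Bcl3 -0.88 and the transcription factor Stat3 -0.41. Of 19 measured members 9 lay above 0 and 10 below, the 2 past 2-fold were Il11 and Lif, and the median was -0.01.

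The stretches before the starts of Il11, Lif and Serpinb2 are shown because each holds the AP-1 letters TGANTCA (either strand, N any base), here in capitals. The sequences are from RefSeq, build GRCm38.p6. Il11 is chr7:4778187-4778286 on the minus strand, Lif chr11:4257318-4257417 on the plus strand and Serpinb2 chr1:107511282-107511381 on the plus strand.
Il11: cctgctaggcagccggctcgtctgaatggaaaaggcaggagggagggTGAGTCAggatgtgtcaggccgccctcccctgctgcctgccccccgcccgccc
Lif: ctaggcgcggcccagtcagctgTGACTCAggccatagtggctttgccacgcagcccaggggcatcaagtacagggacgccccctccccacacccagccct
Serpinb2: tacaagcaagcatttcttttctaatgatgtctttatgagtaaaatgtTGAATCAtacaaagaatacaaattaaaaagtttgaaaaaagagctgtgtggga
The match lay at positions -98 to -92 from the start in Il11, -228 to -222 in Lif and -94 to -88 in Serpinb2. TGANTCA occurred in the 250 bases before the start of 12 of 81 genes that were 2-fold higher and had a promoter entry (14.8%), against 668 of 11056 measured genes (6.04%) and 2217 of all 32851 promoters in the table (6.75%). It occurred in 4 of 44 genes that were 2-fold lower (9.09%). A match is a description of the letters and not evidence of binding.

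Cxcl5 and Cxcl1, which attract neutrophils, and Ccl2, which attracts monocytes, were 2-fold higher with EPS, while the stromal chemokine Cxcl12 was lower. Cxcl5 had signals of 550.9 without and 537.5 with EPS at 0 min, 7145 without EPS at 5 h and 32396 with EPS at 5 h. Cxcl1 had 691.0, 1071, 4175 and 17017, and Ccl2 had 2747, 3801, 2902 and 10560. The 5 h arrays of Cxcl5 and Cxcl1 both stood above the 0 min arrays, the EPS array highest, while for Ccl2 the control stayed near its 0 min signal. Folds at 5 h were 3.89 for Cxcl5, 3.50 for Cxcl1 and 3.12 for Ccl2. Cxcl12 had 16878, 14375, 3949 and 2222, so that it was 2.07-fold lower with EPS on a control already below its 0 min value, and its other probe had -0.79. Of 21 measured genes of the list 15 lay above 0, 3 were 2-fold higher and 1 was 2-fold lower. Among all genes the shares were 43.4%, 0.691% and 0.523%. The list median was 0.18. Cxcl16 had 0.74, Ccl5 0.66 and Ccl9 0.51. Ccl3 was above background with EPS alone, at a signal of 134.9 against 16.2, or at least 7.0-fold higher. A further 21 of the 43 listed genes were dim on both arrays, among them the neutrophil attractants Cxcl2, Cxcl3 and Ppbp and the monocyte attractant Ccl12.

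The promoter stretches of Cxcl1 and Il6 are shown because each holds the NF-kB motif within the last 100 bases before the start (capitals, RefSeq GRCm38.p6). Cxcl1 is chr5:90891129-90891228 and Il6 chr5:30013014-30013113, both on the plus strand.
Cxcl1: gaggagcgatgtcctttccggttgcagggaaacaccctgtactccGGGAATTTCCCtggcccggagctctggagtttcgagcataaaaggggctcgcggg
Il6: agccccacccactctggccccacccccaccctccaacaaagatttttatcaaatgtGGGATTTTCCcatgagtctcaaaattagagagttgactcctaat
In Cxcl1 the capitals hold 2 overlapping matches at positions -71 to -62 and -70 to -61, and in Il6 1 match at -44 to -35. The motif, searched on both strands, occurred in 3 of 14 measured chemokine list genes with a promoter entry (21.4%), in 601 of 11056 measured genes (5.44%) and in 1281 of 32851 promoters (3.90%). It occurred in 7 of 81 genes that were 2-fold higher (8.64%) and 3 of 44 that were 2-fold lower (6.82%). Of 19 measured NF-kB subunits and feedback genes 15 lay above 0, against 43.4% of all genes. None was past 2-fold, and the median was 0.28. The members farthest up were Ier3 at 0.80, Vcam1 (a leukocyte adhesion molecule) at 0.69 with 0.17 on its other probe, Nos2 at 0.44, and Nfkbia (the inhibitor IkB-alpha) and Sod2 at 0.41. Bcl3 at -0.88 and Irf1 at -0.55 were farthest down.

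Genes of alarm and acute phase signalling had some of the largest differences. Il1rl1, the receptor of interleukin-33, had signals of 190.3 without and 159.7 with EPS at 0 min, 398.7 without EPS at 5 h and 2555 with EPS at 5 h, a 5.50-fold difference, and its other measured probe had 1.86 on the log2 scale. Il33 itself had 0.53. S100a8, a calcium-binding alarm protein, had 200.3 and 1074 at 5 h (4.60-fold), while its partner S100a9 had 0.49. Olr1, a scavenger receptor for oxidized lipoprotein, had 72.3 and 428.2 (5.08-fold), and Saa3, an acute phase serum amyloid, 254.9 and 838.5 (2.82-fold). Clec4e, a pattern recognition receptor from outside this list, was dim at 0 min, at 6.1 and 4.2, and had 239.3 and 926.5 at 5 h (3.32-fold). All of these were highest on the EPS array at 5 h. Of 23 measured members of the list 15 lay above 0, 4 were 2-fold higher and none 2-fold lower, with a median of 0.12, against 43.4% above 0 and 0.691% 2-fold higher among all genes. Olr1 had 1.68 in place of 2.34 after normexp correction. Il1a, Il1rn and Tnf were among 6 members dim on both arrays.

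S100a8 and S100a9 are also markers of neutrophils, and Clec4e and Cd14 are expressed by macrophages. Of 14 neutrophil markers, 7 were measured, 5 of them above 0 with a median of 0.17. The 6 dim on both arrays were Mpo, Ngp, Ltf, Cxcr2, Retnlg and Mmp8. Signals of the 7 ran from 34.3 (S100a9) to 59905 (Csf3r) without EPS and from 56.3 to 65989 with EPS, for the same genes. Of 14 macrophage markers 6 were measured, with 3 above 0 and 3 below. Adgre1, Cd163 and Fcgr1 were above background without EPS alone and Mrc1 with EPS alone. Cd14 had 0.91 and Cd68 0.64, Itgam -0.17 and Csf1r -0.13, and Lyz1, Lyz2, Tyrobp and Cx3cr1 were dim on both arrays. The part of either cell type in the results was not tested.

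Hbegf, Ereg and Nrg1, ligands of the EGF receptor family, were 2-fold higher with EPS. Hbegf (heparin-binding EGF-like growth factor) had signals of 3164 without and 3519 with EPS at 0 min, 2993 without EPS at 5 h and 8184 with EPS at 5 h, a 2.35-fold difference. Ereg (epiregulin) had 1127, 1349, 9778 and 26483, or 2.32-fold, and Nrg1 (neuregulin 1, a ligand of ErbB3 and ErbB4) 1371, 1256, 1541 and 3824, or 2.13-fold. For Hbegf and Nrg1 the EPS array at 5 h stood alone, and for Ereg the control was also high at 5 h. Areg (amphiregulin) had 0.84 and Btc (betacellulin) 0.53, and the ligands Tgfa, Nrg2 and Nrg4 were dim on both arrays. The receptor Egfr had 0.73 on its brightest probe and down to -0.01 on others, Erbb2 -0.02 and Erbb3 -0.07. The feedback inhibitors Lrig1 and Errfi1 had 0.55 and 0.51. Of 15 measured members 10 lay above 0, and the 3 ligands named first were 2-fold higher. Among all genes the shares were 43.4% and 0.691%. The list median was 0.51, or 0.17 after normexp correction.

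Inhba encodes the subunit of activin A, a growth factor of the TGF-beta family that restrains muscle growth. Its signal was 4941 without and 6306 with EPS at 0 min, 17798 without EPS at 5 h and 70454 with EPS at 5 h, so that the EPS array was the highest by 3.40-fold over its control. Among 29 measured genes of the activin, myostatin and TGF-beta system it was the 1 past 2-fold. Gdf15, a stress-induced member of the family, had 0.50, the inhibitory Smad7 0.46 and Inhbb, the other activin subunit, -0.72. Mstn, the gene for myostatin, was dim on both arrays. The list's median was 0.03 with 17 genes above 0, against 43.4% of all genes.

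Other growth factors went both ways. Of 35 measured FGF, PDGF, VEGF and HGF genes 17 lay above 0 and 18 below, with a median of -0.18 that became 0.01 without the dimmest genes. Those above were mostly ligands: Pgf (placental growth factor) was 2.13-fold higher, at 117.4 and 291.2, and Gdnf had 0.95, Fgf5 0.89, Vegfc 0.88, Pdgfb 0.85, Bdnf 0.83, Fgf2 0.61 and Vegfa 0.47. Those farthest below were Kitl (stem cell factor) at -0.92, the PDGF receptor Pdgfrb at -0.87, Fgf9 at -0.67, Vegfd at -0.66 and the VEGF receptor Kdr at -0.63. Pdgfrb is a fibroblast and pericyte marker as well. Of 12 measured fibroblast markers 9 lay below 0, against 56.6% of all genes, with a median of -0.24. Among them Col1a1 had -0.20 and Col3a1 -0.34. The part of fibroblasts or pericytes in the result was not tested. Igfbp3, a binding protein of insulin-like growth factors, was 2.26-fold higher at 861.6 and 2270. Wnt11, a non-canonical Wnt ligand, was 2.06-fold higher at 111.0 and 267.0. After normexp correction Pgf and Wnt11 had 0.78 and 0.76.

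**Figure D3:**
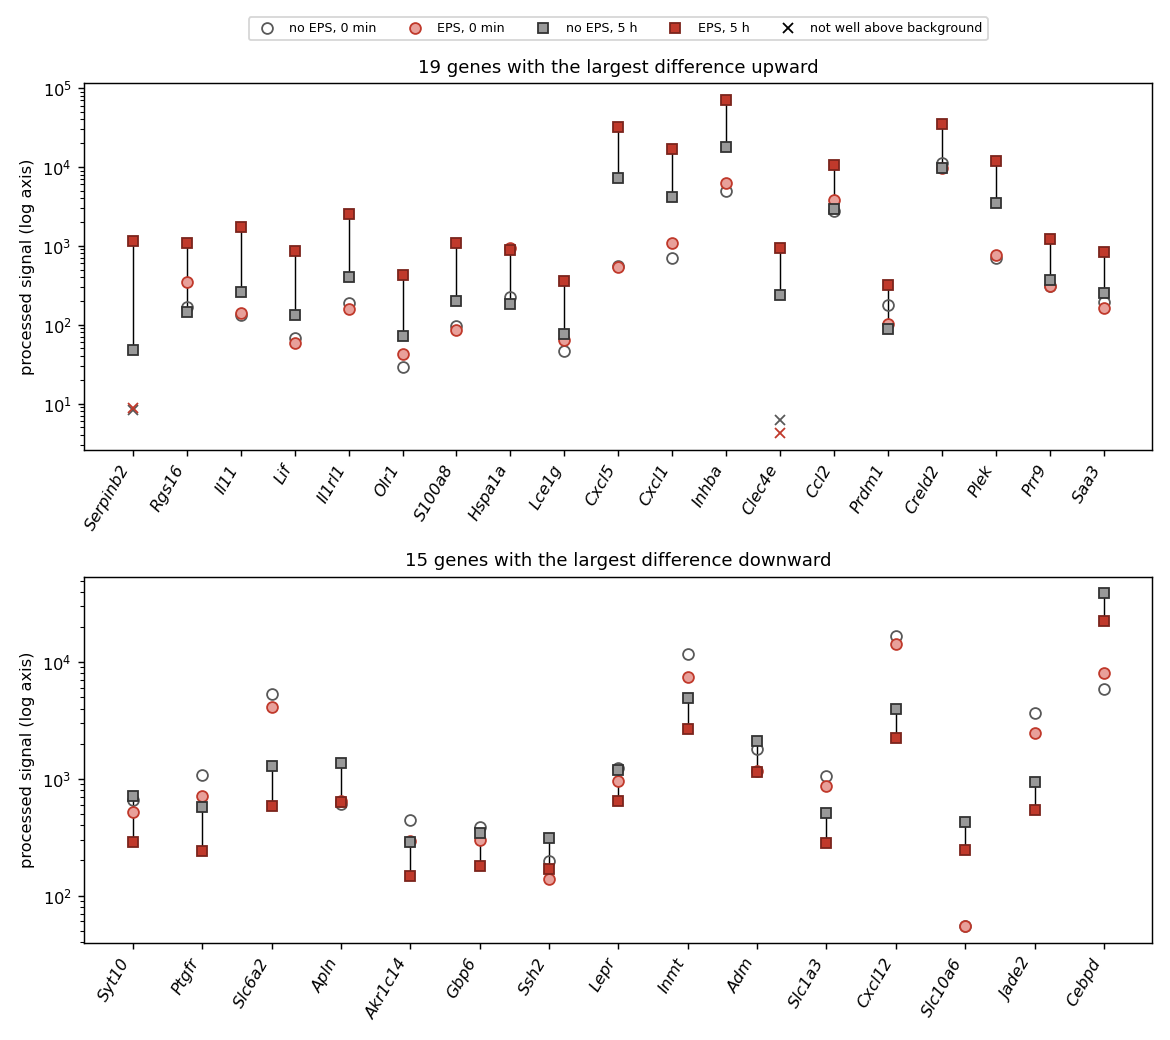
Processed signal (log axis) on each of the 4 arrays for the named genes with the largest differences, 19 upward and 15 downward, outside the dimmest group. Lines join the 5 h arrays and crosses mark values not well above background. Cxcl5, Cxcl1 and Inhba were higher on both 5 h arrays than at 0 min, and Il11 and Lif stood apart with EPS at 5 h.

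Rgs16, Dusp5 and Map2k6, regulators of kinase and G protein signalling, were 2-fold higher. Rgs16, which shortens signalling by G protein-coupled receptors, had signals of 168.7 without and 344.8 with EPS at 0 min, 146.4 without EPS at 5 h and 1092 with EPS at 5 h. It was thus 2-fold higher at both times, 6.40-fold at 5 h. It was the 1 of 15 measured members of its list past 2-fold, and the median was 0.00. Of 19 measured MAP kinase phosphatases and Sprouty genes 15 lay above 0, against 43.4% of all genes, with a median of 0.25. Dusp5, an ERK phosphatase, was 2.24-fold higher at 55.2 and 143.9, and Spry4, an inhibitor of growth factor receptors, had 0.93. Dusp5 had 0.57 after normexp correction. Map2k6, a kinase that activates p38, was 2.31-fold higher at 114.6 and 307.9, with 0.82 after that correction.

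Early response genes lay nearer to 0 at 5 h than at 0 min. Arc, an early gene of active neurons, was the 1 of 36 measured members past 2-fold, with signals of 365.0 without and 1274 with EPS at 0 min and 209.3 and 643.8 at 5 h. The median of the list was 0.13 at 5 h and 0.54 at 0 min, where 8 of 38 measured members were 2-fold higher. Over all genes the 0 min median was 0.02, and for a list of reference genes it was 0.12. Fos had a difference of 0.09 at 5 h and 1.24 at 0 min, and Nr4a1 0.29 and 1.55. Nr4a2 had 0.95, Ccn2 (a matrix growth factor target of YAP) 0.95, Atf3 0.84 and Fosb 0.77 at 5 h. Jun and Fosl2 each had -0.56. Prdm1, a repressor of transcription, was 3.12-fold higher at 87.3 and 317.2.

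Hspa1a encodes a stress-inducible cytosolic chaperone of the Hsp70 class and was past 2-fold at both times. Its signals were 226.0 without and 932.6 with EPS at 0 min and 182.5 and 881.3 at 5 h, so that both EPS arrays were high and both controls low. Its near-identical copy Hspa1b may share the probe, so the source gene is uncertain. The other 28 of 29 measured cytosolic heat shock genes lay between -0.24 and 0.38 at 5 h. The list median was -0.02, or 0.02 under quantile normalization. At 0 min it was 0.20, with 0.12 for the reference genes. Dnajb1, the Hsp70 co-chaperone, had 1.80 at 0 min and 0.05 at 5 h, and Hsph1 had 0.46 and 0.38.

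The list of endoplasmic reticulum chaperones and folding enzymes had the most measured members of the 61 lists and the most members above 0. Of 48 measured genes 43 lay above 0, 5 were 2-fold higher and none 2-fold lower, with a median of 0.33. Over all genes the shares were 43.4% above 0 and 0.691% 2-fold higher. The EGF list had a higher median, at 0.51, as did the Usp17-like deubiquitinases, at 1.12 with 3 measured genes, all above 0. Creld2, a secreted disulfide isomerase of the reticulum, had signals of 11062 without and 9778 with EPS at 0 min, 9773 without EPS at 5 h and 35051 with EPS at 5 h. It was 3.08-fold higher at 5 h, and the other 3 arrays were alike. Manf, a neurotrophic factor released on calcium loss from the reticulum, had 5666, 4625, 5291 and 13856 and was 2.25-fold higher. Hyou1, a large Hsp70-related chaperone, had 133.6 and 354.2 at 5 h (2.27-fold), Sdf2l1, part of the DNAJB11 chaperone complex, 625.7 and 1632 (2.24-fold) and Pdia4, a disulfide isomerase, 1237 and 2941 (2.04-fold). Hspa5, the main chaperone BiP, was bright throughout at 53042, 47151, 58971 and 120400, a difference of 0.81. Nucb2 had 0.70, Ero1b (an oxidase of disulfide formation) 0.76, Pdia6 0.59, Dnajc3 0.58, Hsp90b1 0.56 and Calr 0.48. The sensors and factors of the response lay lower, with Ern1 at 0.36, Atf6 at 0.30 and Xbp1 at 0.28. Fkbp11 had -0.79. At 0 min the list median was 0.10, with 0.12 for the reference genes, and no member was past 2-fold. After normexp correction Creld2, Manf and Sdf2l1 were past 2-fold, with Hyou1 at 0.86 and Pdia4 at 0.98.

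**Figure D4:**
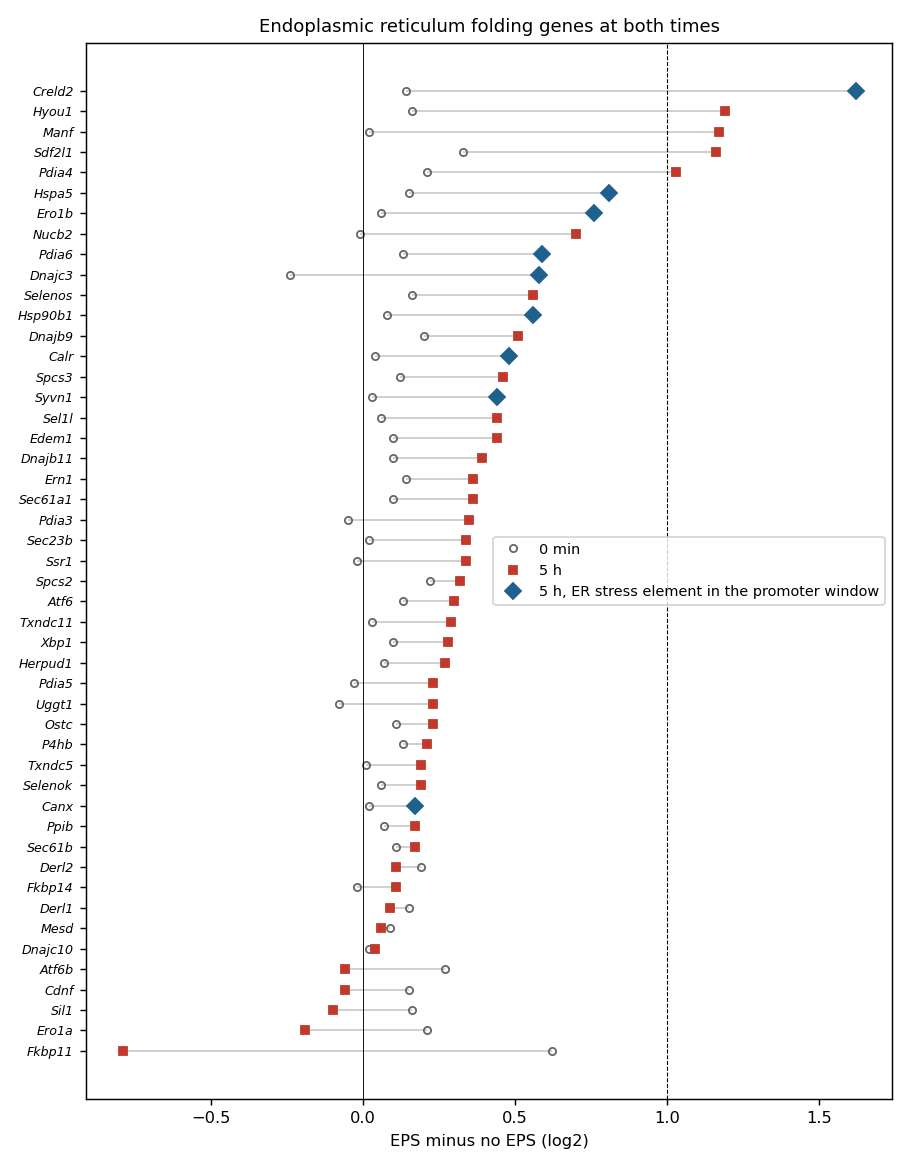
Difference between EPS and no EPS (log2, horizontal axis) of 48 endoplasmic reticulum folding genes at 0 min (open circles) and 5 h (filled squares). Diamonds mark the 9 genes with an ER stress element in the 250 bases before the start, which lie between 0.17 (Canx) and 1.62 (Creld2) at 5 h.

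The promoters of folding genes are shown because ATF6 and XBP1 are known to act through the ER stress element, CCAAT followed after 9 bases of any kind by CCACG. The element is in capitals, on either strand, in 100 bases from RefSeq GRCm38.p6. Creld2 is chr15:88819479-88819578, Hspa5 chr2:34771984-34772083, Dnajc3 chr14:118937786-118937885 and Pdia6 chr12:17266450-17266549, all on the plus strand. Hsp90b1 is chr10:86705493-86705592 and Calr chr8:84847035-84847134, both on the minus strand.
Creld2: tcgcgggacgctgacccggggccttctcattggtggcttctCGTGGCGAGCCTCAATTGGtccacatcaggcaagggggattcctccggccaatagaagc
Hspa5: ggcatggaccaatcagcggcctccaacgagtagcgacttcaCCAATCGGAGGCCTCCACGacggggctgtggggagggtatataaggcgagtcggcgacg
Dnajc3: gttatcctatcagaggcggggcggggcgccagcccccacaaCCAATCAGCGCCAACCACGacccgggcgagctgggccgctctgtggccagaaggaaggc
Pdia6: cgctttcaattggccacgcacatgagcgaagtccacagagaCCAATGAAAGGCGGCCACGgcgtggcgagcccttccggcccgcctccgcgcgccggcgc
Hsp90b1: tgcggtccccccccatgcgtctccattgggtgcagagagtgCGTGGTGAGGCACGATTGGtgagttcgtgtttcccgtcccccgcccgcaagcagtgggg
Calr: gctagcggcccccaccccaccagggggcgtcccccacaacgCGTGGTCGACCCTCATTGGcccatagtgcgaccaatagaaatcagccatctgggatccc
In Creld2, Hsp90b1 and Calr the element reads on the opposite strand, as CGTGG, 9 bases and ATTGG. It lay at positions -126 to -108 in Creld2, -65 to -47 in Hspa5, -105 to -87 in Dnajc3, -98 to -80 in Pdia6, -107 to -89 in Hsp90b1 and -162 to -144 in Calr, and Hsp90b1 held another at -212 to -194 outside the stretch shown. Of the measured list genes with a promoter entry 9 of 40 held the element (22.5%), against 18 of 11056 measured genes (0.163%) and 37 of all 32851 promoters (0.113%). The 18 measured genes with the element had a median difference of 0.38 and 16 of them lay above 0. Of the 11056 genes 5176 lay above 0, with a median of -0.01. The 9 with the element that belong to the list all lay above 0. The 9 outside the list ran from -0.04 (Hnrnpa3) to 0.43 (Xlr3b), with a median of 0.17. Of the 31 list genes without the full element 27 lay above 0, with a median of 0.27, and they included Sdf2l1 and Pdia4. No promoter entry was matched for Manf or Hyou1.

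Genes of the amino acid branch of the stress response, which the factor ATF4 controls, differed less. Of 29 measured members 21 lay above 0, against 43.4% of all genes, and none was past 2-fold. The median was 0.19 at 5 h and 0.20 at 0 min, where that of the reference genes was 0.12. Ddit3 (the factor CHOP) had 0.56, Chac1 0.63, Sesn2 0.63 and Cth 0.68, while Atf4 itself had 0.05 and Asns 0.17.

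Neuropeptide genes were mostly dim, and a few of those measured were higher with EPS. Of 45 listed precursors and granule proteins 18 were measured and 25 were dim on both arrays. Penk, the precursor of enkephalins, had signals of 78.7 without and 67.0 with EPS at 0 min, 76.3 without EPS at 5 h and 284.1 with EPS at 5 h, so that 3 arrays were alike and the 5 h EPS array was 3.20-fold above its control. Scg2 (secretogranin II) was 2.52-fold higher at 66.8 and 196.6, and Vgf had 0.92 at 25.7 and 56.5. Cck, the precursor of cholecystokinin named in the study's title, had signals of 14120, 8981, 11124 and 23200 in that order of arrays, highest with EPS at 5 h. Its difference of 0.84 stood at rank 188 of 18534 from the top, under 2-fold. Its receptors Cckar and Cckbr were dim on both arrays. Npy (neuropeptide Y) was above background with EPS alone, with a lower bound of 2.29 on the log2 scale. Scg3 (secretogranin III) was 3.42-fold lower at 93.4 and 31.9. The list median was 0.09 with 11 genes above 0, against 43.4% of all genes. Without the dimmest genes 4 members lay above 0 and 4 below, and none was past 2-fold. After normexp correction 9 lay above 0 and 9 below, with a median of 0.00, and Scg2 had 0.76 and Scg3 -0.95.

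The promoters of Scg2 and Cck are shown because each holds a CREB-type site close to the start, TGACGTCA in Scg2 and the variant TGCGTCA in Cck (capitals, RefSeq GRCm38.p6). Scg2 is chr1:79440041-79440140 and Cck chr9:121495695-121495794, both on the minus strand.
Scg2: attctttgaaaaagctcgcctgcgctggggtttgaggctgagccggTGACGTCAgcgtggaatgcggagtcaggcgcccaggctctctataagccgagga
Cck: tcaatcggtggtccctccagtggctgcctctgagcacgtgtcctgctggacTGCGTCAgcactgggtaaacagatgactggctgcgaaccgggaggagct
The site lay at -68 to -61 in Scg2 and at -49 to -43 in Cck. On both strands, TGACGTCA occurred in 319 of 11056 measured genes (2.89%) and 508 of 32851 promoters (1.55%), and TGCGTCA in 347 (3.14%) and 574 (1.75%). Of 81 genes that were 2-fold higher and had a promoter entry, 2 held TGACGTCA (2.47%) and 1 held TGCGTCA (1.23%). Among 15 measured peptide list genes with a promoter entry 1 held TGACGTCA and 2 held TGCGTCA.

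The inducible cyclooxygenase was higher and a prostaglandin receptor lower. Ptgs2 (cyclooxygenase 2), which makes prostaglandin H2, had signals of 2047 without and 3869 with EPS at 0 min, 16670 without EPS at 5 h and 42898 with EPS at 5 h. It was 2.21-fold higher at 5 h and past 2-fold at both times. Ptgfr, the receptor for prostaglandin F2-alpha, had 1070, 711.8, 579.7 and 241.2 and was 2.80-fold lower at 5 h, with the EPS array lowest. Akr1c14, a hydroxysteroid dehydrogenase that also acts on prostaglandins, had 285.5 and 146.5 (2.27-fold lower), and Hpgd, which breaks prostaglandins down, had -0.74 and the receptor Ptger4 -0.65. Of 21 measured members 15 lay below 0, against 56.6% of all genes, with a median of -0.18. Without the dimmest genes 6 lay above 0 and 10 below, with a median of -0.03. Akr1c14 had -0.93 after normexp correction.

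The vasoactive peptide genes Apln and Adm were lower with EPS, and the receptor genes Ramp3 and Npr3 higher. Apln (apelin) had signals of 612.8 without and 639.9 with EPS at 0 min, 1357 without EPS at 5 h and 631.4 with EPS at 5 h, so that the 5 h control stood alone at the top. Adm (adrenomedullin) had 1817, 1162, 2104 and 1150, lower with EPS at both times. Folds at 5 h were 2.50 for Apln and 2.13 for Adm. Ramp3, a co-receptor that lets the calcitonin receptor-like receptor bind adrenomedullin, was 2.74-fold higher at 968.7 and 3087. Npr3, the clearance receptor of natriuretic peptides, was 2.25-fold higher at 139.8 and 366.9, with 0.82 after normexp correction. Of 18 measured members 9 lay above 0 and 9 below.

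Apln and Adm are also targets of the hypoxia-inducible factors, of which most others differed little. Of 37 measured sensors and non-glycolytic targets 16 lay above 0 and 21 below, with a median of -0.02 at 5 h. The list median at 0 min was 0.21, with 0.12 for the reference genes. Adm was the 1 past 2-fold. Vegfa had 0.47, Angptl4 0.69, Car9 -0.09, Bnip3 -0.16 and Ankrd37 -0.67, and Hif1a itself 0.04. Of 36 glucose transport, glycolysis and glycogen genes 29 lay below 0, against 56.6% of all genes, by small amounts: the median was -0.15, and -0.11 under quantile normalization. Slc2a3, the glucose transporter GLUT3, had -0.99, Ldha -0.30, Pkm -0.29 and Gapdh -0.28. The reference gene list, which holds Gapdh too, had a median of -0.07, and 0.03 under quantile normalization.

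Glutathione and other NRF2 target genes lay below 0 in most cases. Of 46 measured members 39 lay below 0, against 56.6% of all genes, and none was past 2-fold. The median was -0.19, and -0.16 under quantile normalization, where 38 lay below 0. The glutathione transferases were farthest down, with Mgst2 at -0.61, Gsta4 at -0.59, Gsta2 at -0.58, Gsta1 at -0.57, Gsta3 at -0.48 and Gstm1 at -0.42, though the Gsta genes are close paralogs whose probes may share signal. Aox1 had -0.55, Hmox1 (heme oxygenase 1) -0.38, Nqo1 -0.31 and the factor Nfe2l2 0.06. Sod2 (mitochondrial superoxide dismutase) at 0.41 and Slc7a11 (the cystine transporter) at 0.34 went the other way. At 0 min the list median was 0.09, against 0.02 over all genes and 0.12 for the reference gene list.

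Stra6 had the largest difference downward of any gene with a symbol. Stra6, the membrane receptor that takes up vitamin A, had signals of 83.1 without and 48.0 with EPS at 0 min, 151.0 without EPS at 5 h and 27.5 with EPS at 5 h, a 6.40-fold difference. The 5 h control was the highest of the 4 arrays and the EPS array at 5 h the lowest. Crabp1, a retinoic acid binding protein, was 2.30-fold lower at 79.6 and 40.4 and was also 2-fold lower at 0 min. Rarb, a retinoic acid receptor that is itself a retinoic acid target, was 2.15-fold lower at 50.8 and 27.6. Inmt, a methyltransferase that does not act on retinoids and was listed with them, was 2.14-fold lower at 4899 and 2665. Cyp1b1 had -0.97, Rara -0.50, Rarg -0.42 and Dhrs3 -0.41. Ch25h, which makes 25-hydroxycholesterol, was 2.13-fold higher at 3546 and 8786, and Cyp26b1, which degrades retinoic acid, had 0.59. Of 28 measured members 20 lay below 0, 4 were 2-fold lower and 1 was 2-fold higher, with a median of -0.18, against 56.6% below 0 and 0.523% 2-fold lower among all genes. Without the dimmest genes 1 member, Inmt, was 2-fold lower and the median was -0.09. After normexp correction 2 members were 2-fold lower, with Stra6 at -1.47, Crabp1 at -0.66 and Rarb at -0.49.

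Other genes lower with EPS encode transporters, receptors and regulators of transcription. Syt10, a synaptotagmin of regulated secretion, had signals of 657.1 without and 520.6 with EPS at 0 min, 707.3 without EPS at 5 h and 289.7 with EPS at 5 h (2.84-fold). Slc6a2, the noradrenaline transporter, had 5327, 4158, 1282 and 587.9 (2.54-fold), and Slc1a3, a glutamate transporter, 1061, 871.9, 508.9 and 279.9 (2.12-fold). In these transporters both 5 h arrays lay below the 0 min arrays and the EPS array was lowest. Lepr, the leptin receptor, was 2.16-fold lower at 1198 and 645.4, and Gbp6, an interferon-induced GTPase, 2.23-fold lower at 344.9 and 180.3. Cebpd, a transcription factor of the acute phase response, had 5898, 8101, 38938 and 22659, so that it was high on both 5 h arrays and 2.0-fold lower with EPS. Slc10a6, Jade2 and Ssh2 were 2.03-fold, 2.03-fold and 2.16-fold lower. After normexp correction Akr1c14, Gbp6, Ssh2, Slc1a3, Slc10a6, Jade2 and Cebpd had between -0.98 and -0.87.

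Matrix genes differed in single members. Mmp13 (collagenase 3) was 3.28-fold higher at 44.3 and 168.9, and Mmp9 was above background with EPS alone, with a lower bound of 2.05 on the log2 scale. Tnc (tenascin C, a matrix protein of loaded tissue) was 2.01-fold higher, just inside 2-fold. Adam12 was 2.39-fold lower at 121.9 and 59.3 and Tnxb (tenascin X) 3.58-fold lower at 77.1 and 25.1. Of 34 measured collagen genes 12 lay above 0 and 22 below, near the share of all genes (56.6% below), with a median of -0.10, and Col25a1 at -1.02, with -0.32 on its other probe, was the 1 past 2-fold. After normexp correction Mmp13, Tnc, Adam12, Tnxb and Col25a1 had 0.94, 0.78, -0.75, -0.84 and -0.54.

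Genes of the contractile apparatus and of oxidative phosphorylation lay close to the median of all genes. Of 20 measured myosins, 37 thin filament and Z-disc genes, 27 excitation-contraction coupling genes and 36 subunits of oxidative phosphorylation none was past 2-fold. Their medians were -0.09, -0.06, -0.09 and -0.04, and quantile normalization turned the first to 0.00, the next to 0.01 and the last to 0.00. Acta1 (skeletal actin) had 0.04, Myh1 -0.09 and Ckm (muscle creatine kinase) -0.16. Xirp1, a protein of damaged or loaded fibres, had 0.52 and Myf6 -0.65. Of 32 measured ubiquitin ligase, FoxO and autophagy genes none was past 2-fold, with a median of -0.05. Of 33 cell cycle genes 25 lay above 0, against 43.4% of all genes. Their median was 0.07 at 5 h and -0.27 at 0 min. At 5 h 19 of them lay above 0 under median centring, with a median of 0.04, and 26 under quantile normalization, with 0.07.

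**Figure D5:**
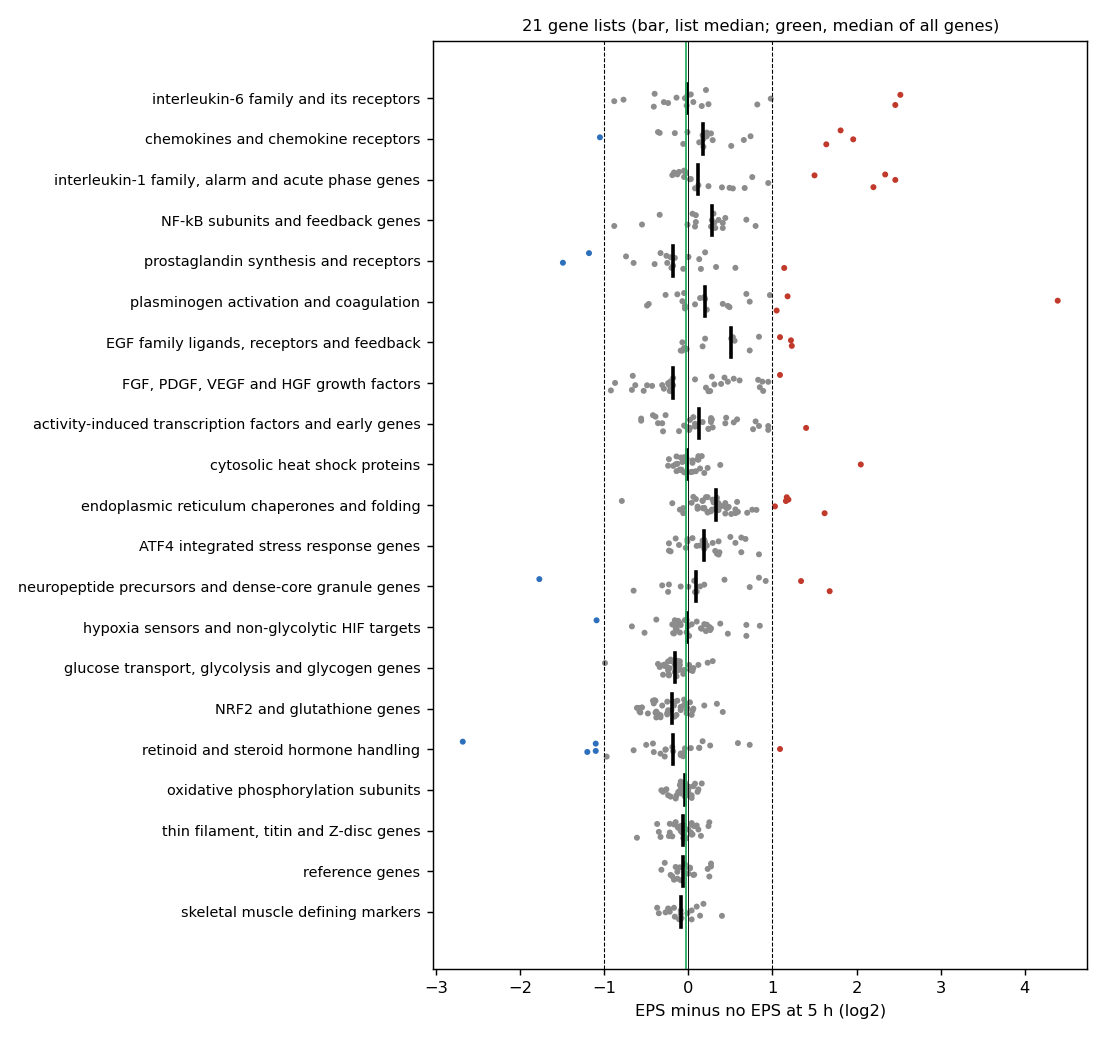
Difference between EPS and no EPS at 5 h (log2, horizontal axis) for the measured members of 21 gene lists, 1 point per gene. Red and blue points are past 2-fold, bars are list medians and the green line is the median of all 18534 genes. Endoplasmic reticulum chaperones lie to the right as a group, and sarcomere and oxidative phosphorylation genes lie around 0.

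Channel, adrenergic and signalling genes at low signal were past 2-fold in single cases. Adra2a, an adrenergic receptor, was 2.66-fold higher at 40.2 and 124.7 and Kcne4, a potassium channel subunit, 3.05-fold higher at 25.3 and 89.9, with 0.68 and 0.64 after normexp correction. Mfng, a Notch-modifying enzyme, had 1.16 on its brighter probe, 0.54 after that correction, and -1.02 on the other probe, so its direction is not settled. Plek (pleckstrin) was 2.91-fold higher at 3538 and 11980, and Gpat3, an enzyme of triglyceride synthesis, 2.35-fold higher at 1597 and 4374. Prr9, a proline-rich protein, was 2.83-fold higher at 371.3 and 1223.

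Probes for families of near-identical genes were also past 2-fold. Lce1f, Lce1i, Lce1g and Lce1c, late cornified envelope genes of skin, had 2.45, 2.36, 2.02 and 1.83. Of 43 epidermal list genes on the array 21 were measured, 14 of them above 0, with a median of 0.19. These 4 Lce1 genes were the list's members past 2-fold. Among all genes 43.4% lay above 0 and 0.691% were 2-fold higher. A further 21 list genes were dim on both arrays, among them Lce1b, Lce1d, Lce1e, Krt5, Krt1 and Ivl. Usp17la, Usp17lb and Usp-ps of the Usp17 cluster had 1.12, 1.58 and 1.12 at 5 h and 1.45, 1.72 and 1.57 at 0 min, and another probe of Usp17la had -0.22. Which copy gave the signal is uncertain in both families. After normexp correction the Lce1 genes had 1.61, 1.17, 1.36 and 0.80 and the Usp17 genes 0.95, 0.62 and 0.82 in the order given.

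Some genes were seen above background on 1 of the 2 arrays. With EPS alone these were 628 genes and without EPS 780, while 11916 were dim on both. A lower bound, set by whichever was higher on the dim array, the probe's own level or the lowest level there called above background, passed 2-fold for 151 genes higher and 232 lower. Cacna1e, a calcium channel subunit, was at least 8.96-fold higher at 172.5 against 7.5, and Cd2, a lymphocyte adhesion protein, at least 8.66-fold higher at 166.8 against 5.7. Rdh19, a retinol dehydrogenase, and the olfactory receptors Olfr536 and Olfr552 were at least 8.36-fold, 7.89-fold and 7.28-fold higher. Downward, Prss43 was at least 13.0-fold lower at 202.1 against 4.2, Crnn 12.5-fold and Htr3b, a serotonin receptor subunit, 11.3-fold. At 0 min Prss43 went the other way, dim without EPS at 4.7 and above background with EPS at 100.6. Vmn2r55 and Gpr182 were at least 9.46-fold and 9.26-fold lower, and Olfr1389 lay between these and Htr3b. Crnn was above background on the unstimulated 5 h array alone, at 193.3 against at most 4.6 on the other 3.

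The differences at 0 min come from the other pair of arrays, which shares none with the 5 h pair. At 0 min 102 of 18581 genes (0.549%) were past 2-fold upward in the stimulated tissue and 147 (0.791%) downward. Of 18099 genes measured on all 4 arrays, 97 were 2-fold higher at 5 h, and 9 of these were 2-fold higher at 0 min. Their median difference was 1.24 at 5 h and 0.21 at 0 min, where 73 of the 97 lay above 0. Over all genes the 0 min median was 0.02, and the share above 0 at that time was not counted. Of 85 genes 2-fold lower at 5 h, 12 were 2-fold lower at 0 min and 57 lay below 0 there, with a median of -0.19. Those higher at both times were Rgs16, Hspa1a, Arc, Ptgs2, the 3 Usp17 cluster genes and the predicted genes LOC100044260 and LOC402769. Those lower at both included Crabp1, Acsm1, Zbed3 and Zfp395. Acsm1 had -1.12 and -1.56, Zbed3 -1.74 and -1.87 and Zfp395 -1.31 and -1.18 at 5 h and 0 min. After normexp correction the 5 h differences were -0.48 for Acsm1, -1.03 for Zbed3, -0.57 for Zfp395, 0.79 for LOC100044260 and 0.53 for LOC402769.

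The 2-fold line cuts a continuous range. Just inside it upward lay Tnc at 1.01, Alpl (alkaline phosphatase) at 1.01, or 0.49 after normexp correction, and 5830403F22Rik, and just outside lay Il6 and Cnn1, each at 0.98. Downward, Cebpd at -1.0, LOC641136 and LOC100046690 lay just inside, and Slc2a3 at -0.99, Tex19.2 and Rsph1 just outside.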

How the data were processed

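Total RNA of 4 samples was hybridised to 4 single-colour Agilent arrays. The intensity values used are processed signals that the authors deposited, made by Agilent Feature Extraction 10.7.3.1 with background subtraction, per the file headers. The value table deposited for the series held equal intensities on every array. Log2 signals were scaled to the 75th percentile of each array over 43020 spots that are not controls, and 112 to 141 spots per array with outlier flags were left out. No spot was saturated. Spots of a probe were averaged, and the brightest of a gene's probes stood for it. Names came from the RefSeq table (GRCm38.p6) for 26161 of 39429 probes and from the array files otherwise. Probe positions are those of the array files (mm9).

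With 1 array per group p-values were not computed, and genes were described by whether they passed 2-fold. The members and the 61 gene lists were chosen with earlier results of these data known. Named genes are Cck and its receptors, the 30 largest differences per direction outside the dimmest 25% by mean level, with a gene name and no probe going the other way (15 met this downward), the 6 largest lower bounds per direction, list members past 2-fold or farthest from 0, genes past 2-fold at both times and the 3 nearest the 2-fold line on each side. Alternatives were normexp correction (offset 50, limma 3.58.1 in R 4.3.3), quantile normalization, median centring, 3 filters, the mean of probes, outlier spots kept and the deposited table. The comparison step, run in Python 3.11.15, was tested on simulated data. Some genes that met these rules are not reported here.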

Additional observations from a re-analysis of the deposited data

Results flagged for a closer look

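Some genes differed in opposite directions with EPS at 5 h and at 0 min, by more than 0.25 on the log2 scale at each time. That is the 95th percentile of the spot error over all levels of the 5 h arrays, and the spot error at 0 min was not computed. The difference between the times was not tested. Ly6f had 1.96 at 5 h and -1.17 at 0 min, H2bfm -2.11 and 1.06, and TC1724494 -1.71 and 1.38. These 3 lay at low signal and had 0.90, -0.99 and -0.87 at 5 h after normexp correction. Mfng had 1.16 and -0.26 (its other probe -1.02 at 5 h). It lay in the dimmest group of genes, where the 95th percentile of the spot error was 0.37, so its difference at 0 min was within that error. Prdm1 had 1.64 and -0.48, Map2k6 1.21 and -0.36, and Cck 0.84 and -0.33. Apln had -1.32 and 0.38, Slc10a6 -1.02 and 0.33, and Cebpd -1.0 and 0.78. The 0 min signals without and with EPS were close for Apln, at 612.8 and 639.9, and for Slc10a6, at 54.4 and 55.0. Their 0 min differences thus rest largely on the scaling to the 75th percentile, which was 1363 without and 1093 with EPS at 0 min. The 0 min differences were not computed under another scaling.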

How the results depend on the processing

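The counts of genes at least 2-fold higher, EPS 5 h against no EPS 5 h (128), and genes at least 2-fold lower, EPS 5 h against no EPS 5 h (97), became 43 and 31 with normexp correction, 56 and 30 without the dimmest 25% of genes, and 1085 and 1445 with no background filter. The 151 and 232 genes with a lower bound over 2-fold became 9 and 84 with normexp correction. Under quantile normalization, median centring, the mean of probes, outlier spots kept and the deposited table, these 4 counts stayed within 1.5 times. So did the first 2 with genes required on all 4 arrays. The 3 filters on dim genes were not run for the lower bounds, which need a dim array. Of 92 named genes past 2-fold that had a value, each kept its direction under normexp, quantile and median scaling, and 47, 85 and 90 of them stayed past 2-fold. The share of higher genes among those past 2-fold was 56.9%, 64.0% under quantile normalization and 53.9% under median centring. Of 61 list medians, 48 had the same sign under quantile normalization and 54 under normexp correction or median centring. With no background filter the chemokine list's median was -0.05 and the neuropeptide list's -0.07. Precision is limited by having 1 array per group, and signals near background are the least certain.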
